A study of Homo sapiens with 12 samples.

Results

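The insulin-like growth factor (IGF) axis of a thyroid cancer cell line was followed through 10 genes, of the 58302 genes in the series. They were selected by name: the receptors IGF1R, IGF2R and INSR, the receptor substrates IRS1 and IRS2, and the binding proteins IGFBP3, IGFBP4, IGFBP5, IGFBP6 and IGFBP7. All 10 were present under these names. RNA was sequenced in 12 libraries, 3 for each of 4 lines. TPC1 is a cell line of papillary thyroid carcinoma, labelled wt. The clones D11, WB1 and TD5 were derived from it with a transiently transfected CRISPR/Cas9 plasmid directed at Dicer1, the enzyme that cuts miRNA precursors, and are labelled DICER (+/-). Each clone grew from a single sorted cell, so that the edit and any other property of the founder cell cannot be told apart within a clone. All lines were kept in the same medium with serum, and serum itself supplies IGFs. In the labels of the clones the treatment field gives the parental line a running number after the first library, while the cell line field names TPC1 throughout. The labels of the libraries do not state that the 3 of a line came from separate cultures. The p-values therefore measure the spread between libraries, which may be technical.

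IGF1 and IGF2 activate the type 1 receptor IGF1R, a tyrosine kinase closely related to the insulin receptor INSR. Both kinases phosphorylate the adaptors IRS1 and IRS2, which recruit PI3K and so engage AKT and mTOR. IGF2R, also the cation-independent mannose 6-phosphate receptor, has no kinase and removes IGF2 from the medium. Secreted IGF binding proteins hold the ligands in solution, and proteases such as PAPPA release them by cutting the binding protein. IGFBP7 binds IGFs weakly and is known as a secreted protein that is often silenced in tumours, those of the thyroid included.

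The deposited values are reads scaled by the authors to 20000000 aligned reads per library and rounded up to whole numbers. They are called scaled reads here. By an estimate from the gaps between the whole numbers, each library rests on 12700000 to 21020000 reads. A floor of 3 reads, an allowance for counting error alone, then equals 2.85 to 4.72 scaled reads. limma was run on log2(value per 1000000 + 1) over the 16027 genes that reached 1 per 1000000 in 3 or more libraries. A difference passed the test at a Benjamini-Hochberg adjusted p under 0.05 over all tested genes, and was called when it also reached 1.5-fold. Of the thyroid markers TG, PAX8, FOXE1 and HHEX were tested, while TSHR, SLC5A5 and NKX2-1 stayed at or under the floor in every library. Of the epithelial markers KRT7, KRT8 and KRT18 were tested and CDH1 was at or under the floor in every library.

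DICER1, the edited gene, had 1360, 1129 and 1101 scaled reads in TPC1. The D11 libraries had 977, 1051 and 1093, those of WB1 881, 939 and 815, and those of TD5 643, 627 and 809. No clone library reached the lowest TPC1 value. On the log2 scale the differences from TPC1 were −0.19 for D11 (adjusted p = 0.138), which did not pass the test, −0.43 for WB1 (adjusted p = 0.00404) and −0.77 for TD5 (adjusted p = 9.02e-05). The D11 value passed with median-of-ratios scaling (−0.25) and with a correction for transcript length (−0.33) or GC content (−0.40, adjusted p = 0.000252), and was −0.10 without TPC1 replicate 1. Reads were counted over the whole gene, and these values do not separate the edited from the intact allele.

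Among the 10 genes, IGFBP7 in TD5 was the only one called in any clone against TPC1: it fell by 1.27 on the log2 scale. IGFBP4 and IGF1R were lower than in TPC1 in every clone, with smaller differences that passed the test in all 3 clones and stayed under 1.5-fold. IGFBP3 was lower in D11, and IRS2 was higher in TD5. Of the 9 genes that could be tested, 4 passed the test in D11, all lower, where 33.3% of all tested genes passed. In WB1 2 passed, both lower, with 30.9% of all tested genes passing. In TD5 4 passed, 3 lower and 1 higher, with 11.9% of all tested genes passing. By the limma test with the 1.5-fold limit, 0 of the 9 genes were called in D11 and 0 in WB1, as with voom, and 1 was called in TD5, beside 4.84%, 4.99% and 2.6% of all tested genes. At an unadjusted p under 0.05 the counts of the 9 were 5, 3 and 6. The share of all tested genes at that limit was not taken, so these counts have no reference to be read against. The median log2 fold change of the 9 genes was −0.17 for D11, −0.05 for WB1 and −0.12 for TD5, beside 0.05, 0.06 and 0.00 for all tested genes. The tenth gene, IGFBP5, did not reach the level needed for a test. The 3 comparisons share the TPC1 libraries.

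IGFBP3 and IGFBP4 were the most abundant transcripts of the group. Per kilobase of transcript, the median over the 12 libraries was 264 per 1000000 for IGFBP3 and 142 for IGFBP4, and their ranges did not overlap with each other or with any other gene of the group. IGFBP6 followed with 44.7 and IGFBP7 with 36.4, and their ranges over the libraries overlapped. The range of IGFBP7, with its low TD5 libraries, also reached that of IGF2R, at 20.2. The levels of IRS1 at 8.83, IRS2 at 2.84, IGF1R at 2.51 and INSR at 1.02 followed. The ranges of IRS2 and IGF1R overlapped, and those of IRS1 and INSR did not overlap with either. IGFBP5 was last, at 0.032. On this scale per length, the 5 binding proteins summed to 544 ± 17.5 (SD, n = 3) in TPC1, 438 ± 3.06 in D11, 478 ± 10.8 in WB1 and 488 ± 17.2 in TD5.

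IGFBP7 (ENSG00000163453, GRCh38 chromosome 4, 57030773 to 57110385, minus strand) had 1311, 1118 and 1189 scaled reads in TPC1, 1005, 985 and 1004 in D11, 1129, 1075 and 1147 for WB1, and 475, 463 and 524 for TD5. The 3 TD5 libraries lay far below the other 9, while WB1 overlapped with TPC1 and D11 lay just below it. Its mean level was 1206 ± 97.6 (SD, n = 3) for TPC1 against 487 ± 32.3 for TD5. In TD5 the log2 fold change was −1.27 (95% confidence interval −1.42 to −1.12), a level 2.41-fold lower (limma, adjusted p = 6.04e-09). It was called under every alternative setting and with any 1 library left out. In bulk libraries, fewer cells with the transcript and less of it per cell cannot be told apart. The difference of D11 was −0.27 (adjusted p = 0.0112) and passed the test, except without TPC1 replicate 1 (adjusted p = 0.0536, with 0.00579 to 0.0536 over the left-out libraries). In WB1 the difference was −0.11 (95% confidence interval −0.26 to 0.05) and did not pass (adjusted p = 0.273).

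TD5 also differed from the other clones directly. Against D11 the log2 difference of IGFBP7 was −1.01 (standard error 0.073, adjusted p = 4.63e-08), and against WB1 it was −1.17 (standard error 0.073, adjusted p = 1.66e-08). In an F test for any difference among the 4 lines, IGFBP7 ranked 29 of 16027 tested genes. Of the 9 tested genes 8 passed this F test, all but INSR (adjusted p = 0.483), where 44.6% of all tested genes passed. IRS2 and IGFBP6 passed it narrowly (adjusted p = 0.042 for each). Leaving out 1 library gave 6 to 8 genes, the alternatives 6 to 8, and IGFBP6 was lost with a replicate block. Of the summed level of the 5 binding proteins per length, IGFBP7 made up 7.78% ± 0.76 (SD, n = 3) in TPC1, 7.97% ± 0.057 in D11, 8.18% ± 0.43 in WB1 and 3.50% ± 0.35 in TD5.

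Of the other tested genes within 1000000 bases of IGFBP7, 1 had a called difference in TD5 as well. The long noncoding RNA IGFBP7-AS1 (57109762 to 57207459, plus strand) starts within the first bases of IGFBP7 and runs the other way. It had 220, 144 and 184 scaled reads in TPC1, 124, 136 and 107 in D11, 144, 160 and 157 for WB1, and 38, 48 and 47 for TD5. Its log2 fold change was −1.64 in TD5 (adjusted p = 4.81e-07, called), −0.50 in D11 (adjusted p = 0.0105) and −0.21 in WB1 (adjusted p = 0.249), the same order as for IGFBP7. The libraries were stranded, but no source states whether the counting used strand, so reads of the pair in the shared bases cannot be assigned with certainty. POLR2B, a subunit of RNA polymerase II, overlaps the other end of IGFBP7 and had a log2 fold change of −0.05 in TD5 (adjusted p = 0.604). The 9 other tested genes within 1000000 bases, REST and PAICS among them, had log2 fold changes of −0.08 to 0.11 in TD5 (adjusted p of 0.143 or more). Like POLR2B, these 9 lie on the low-coordinate side of IGFBP7. No tested gene within that distance lies beyond IGFBP7-AS1, so that side was not observed. In D11 the 9 genes ran from −0.37 to 0.41, with 5 past the test, beside 33.3% of all tested genes. In WB1 they ran from −0.25 to 0.31, with 1 past the test, beside 30.9% of all tested genes. All were under 1.5-fold. In TD5 0 of the 9 passed, beside 11.9% of all tested genes.

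**Figure D1:**
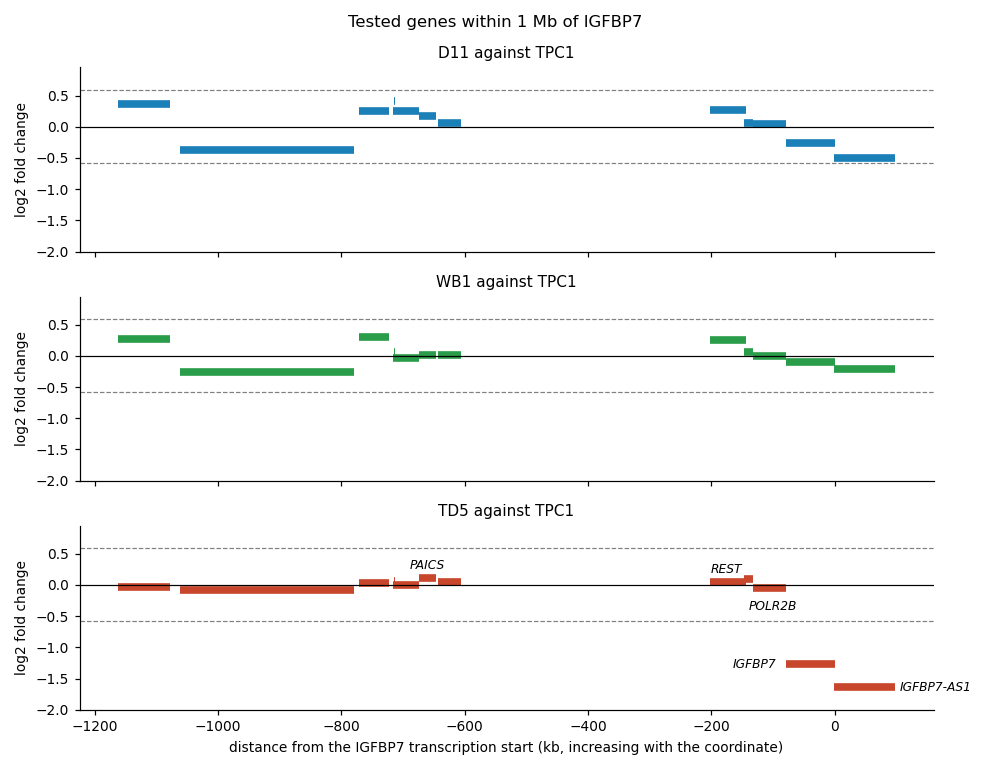
Log2 fold change against TPC1 (vertical axis) of the tested genes within 1000000 bases of IGFBP7, placed by distance from the IGFBP7 transcription start in kilobases, for D11, WB1 and TD5. Each bar spans a gene and dashed lines mark 1.5-fold. In TD5 IGFBP7 (−1.27) and IGFBP7-AS1 (−1.64) lie below the line, and the other genes lie between −0.08 and 0.11. Those other genes all lie towards lower coordinates than IGFBP7.

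The 3 genes whose pattern over the 12 libraries was most like that of IGFBP7 were VAMP8, which encodes a vesicle SNARE protein, AL669918.1 and DTX3, which encodes a ubiquitin ligase. Pearson's r on the log2 scale was 0.98 for each, over points that fall into the TD5 libraries and all others, and is given as a description. VAMP8 had 239, 264 and 297 scaled reads in TPC1 and 5, 3 and 13 in TD5. DTX3 had 192, 192 and 175 scaled reads in TPC1 and 29, 30 and 36 in TD5. Both were lowest in TD5, without overlap with the other lines.

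IGFBP7 and IGFBP4 are also products of stromal and endothelial cells, and the markers of those cells were therefore read beside them. The endothelial list summed to 0 to 9 scaled reads in every library, with CDH5 and KDR at or under the floor throughout. Of the 7 fibroblast markers COL1A2, COL3A1 and DCN were at or under the floor in every library and 3 were tested (COL1A1, LUM and PDGFRB). The fibroblast list summed to 259 to 367 scaled reads in TPC1, 168 to 206 in D11, 238 to 355 in WB1 and 187 to 221 in TD5. In WB1, LUM lay above and PDGFRB below every TPC1 library. LUM had 78, 73 and 63 scaled reads in TPC1, 0 in each D11 library, 138, 212 and 148 in WB1 and 2, 0 and 0 in TD5. PDGFRB had 192, 112 and 177 in TPC1 and 37, 56 and 48 in WB1. COL1A1 had 92, 72 and 89 in TPC1 and 51, 61 and 48 in TD5. The part of these genes in the differences of the binding proteins was not tested.

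IGFBP4 (ENSG00000141753, chromosome 17, 40443450 to 40457725, plus strand), the binding protein that PAPPA cuts, had 7411, 8418 and 8067 scaled reads in TPC1. D11 had 6700, 6214 and 6313, WB1 had 6358, 5728 and 5994, and TD5 had 5757, 6170 and 5745. The clones overlapped with each other, and every clone library lay below every TPC1 library. The clone means were 80.5%, 75.7% and 74.0% of the TPC1 mean. On the log2 scale D11 differed by −0.31 (95% confidence interval −0.44 to −0.18, adjusted p = 0.0014), WB1 by −0.40 (−0.53 to −0.27, adjusted p = 0.000191) and TD5 by −0.43 (−0.56 to −0.31, adjusted p = 0.00018). All 3 intervals ended short of 1.5-fold, and all 3 differences passed the test under each alternative and with any 1 library left out. Their size moved over the alternatives, from −0.37 to −0.20 in D11, −0.46 to −0.29 in WB1 and −0.44 to −0.42 in TD5. In the 3 comparisons between clones IGFBP4 did not pass the test.

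IGFBP3 (ENSG00000146674, chromosome 7, 45912245 to 45921874, minus strand), the main carrier of IGFs in serum, was lower in D11 than in TPC1 and TD5. It had 14944, 15010 and 13398 scaled reads in TPC1 and 11094, 11620 and 11570 in D11, without overlap. It had 12955, 14562 and 13178 in WB1 and 16158, 14891 and 14214 in TD5, which both overlapped with TPC1. For D11 the log2 fold change was −0.34 (95% confidence interval −0.47 to −0.20, adjusted p = 0.0011), and passed the test under each alternative and with any 1 library left out. Those of WB1 (−0.09, adjusted p = 0.279) and TD5 (0.06, adjusted p = 0.578) did not pass. WB1 was above D11 by 0.25 (adjusted p = 0.0212), which was lost without any of the D11 libraries or WB1 replicate 2 (adjusted p = 0.0101 to 0.113) and with no filter. IGFBP3 was higher in TD5 than in D11 by 0.40 (adjusted p = 0.000363), and IGFBP7 was lower there, so that the share of IGFBP3 in the summed binding proteins per length was 49.9% ± 1.60 (SD, n = 3) in D11 and 59.0% ± 2.12 in TD5.

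IGFBP6 (ENSG00000167779, chromosome 12, 53097436 to 53102345, plus strand), which prefers IGF2, had 794, 857 and 884 scaled reads in TPC1, 802, 720 and 724 in D11, 715, 839 and 909 for WB1, and 879, 995 and 927 for TD5. All 3 clones overlapped with TPC1, and the log2 fold changes of −0.17, −0.05 and 0.14 did not pass the test. TD5 was higher than D11 by 0.31 (adjusted p = 0.0161). This was lost without D11 replicate 2, without D11 replicate 3 and without TD5 replicate 2 (adjusted p = 0.00895 to 0.0697 over the left-out libraries), and with the replicate block and a GC correction together (adjusted p = 0.0594). IGFBP5 (ENSG00000115461, chromosome 2, 216672105 to 216695549, minus strand) had 2, 6 and 5 scaled reads in TPC1, 6, 2 and 0 in D11, 9, 4 and 4 for WB1, and 10, 3 and 3 for TD5. These values lie around the floor of 3 reads, and no difference between lines was detectable at this depth.

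IGF1R (ENSG00000140443, chromosome 15, 98648539 to 98964530, plus strand) had 786, 748 and 732 scaled reads in TPC1, 594, 676 and 647 in D11, 607, 551 and 559 for WB1, and 621, 550 and 546 for TD5. As for IGFBP4, the 9 clone libraries lay below every TPC1 library. Of the 9 tested genes of the group these were the 2 with that order, and 6.51% of all tested genes showed it. The log2 fold change of IGF1R was −0.39 in WB1 (95% confidence interval −0.55 to −0.22, adjusted p = 0.00177) and −0.39 in TD5 (−0.55 to −0.23, adjusted p = 0.00344), and both passed under each alternative and with any 1 library left out. In D11 it was −0.24 (−0.40 to −0.07, adjusted p = 0.0288). That was lost when TPC1 replicate 1, 2 or 3 or D11 replicate 1 or 3 was left out (adjusted p = 0.0226 to 0.119 over the left-out libraries). The differences between clones did not pass. Several long noncoding RNAs are annotated within IGF1R, 3 of them on the other strand.

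INSR (ENSG00000171105, chromosome 19, 7112255 to 7294414, minus strand) was the least abundant of the receptors per length. It had 172, 163 and 194 scaled reads in TPC1, 193, 199 and 224 in D11, 196, 178 and 186 for WB1, and 194, 142 and 212 for TD5. All lines overlapped, and the log2 fold changes of 0.20, 0.08 and 0.03 did not pass the test. Their 95% confidence intervals, −0.06 to 0.46, −0.18 to 0.34 and −0.23 to 0.29, lay within 1.5-fold in both directions.

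IGF2R (ENSG00000197081, chromosome 6, 159969082 to 160113507, plus strand) had 6032, 5687 and 6078 scaled reads in TPC1, 5562, 5400 and 5692 in D11, 6289, 6601 and 6408 for WB1, and 5683, 5103 and 5643 for TD5. WB1 lay above and TD5 below every TPC1 library, but no difference against TPC1 passed the test (−0.10, 0.12 and −0.12, adjusted p = 0.188, 0.115 and 0.184). That of D11 passed with median-of-ratios scaling (−0.15) and with a length correction (−0.26, adjusted p = 0.00429). IGF2R was higher in WB1 than in D11 by 0.21 (adjusted p = 0.0226) and lower in TD5 than in WB1 (−0.23, adjusted p = 0.0115). The first was lost without D11 replicate 1 or 2 or WB1 replicate 2 or 3 (adjusted p = 0.0112 to 0.113), with no filter and with a length correction. The second was lost without WB1 replicate 2 or TD5 replicate 2 (adjusted p = 0.00703 to 0.0589), with median-of-ratios scaling and with the block and a GC correction, and was −0.04 after a length correction. The noncoding RNA AIRN is annotated on the other strand of IGF2R.

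**Figure D2:**
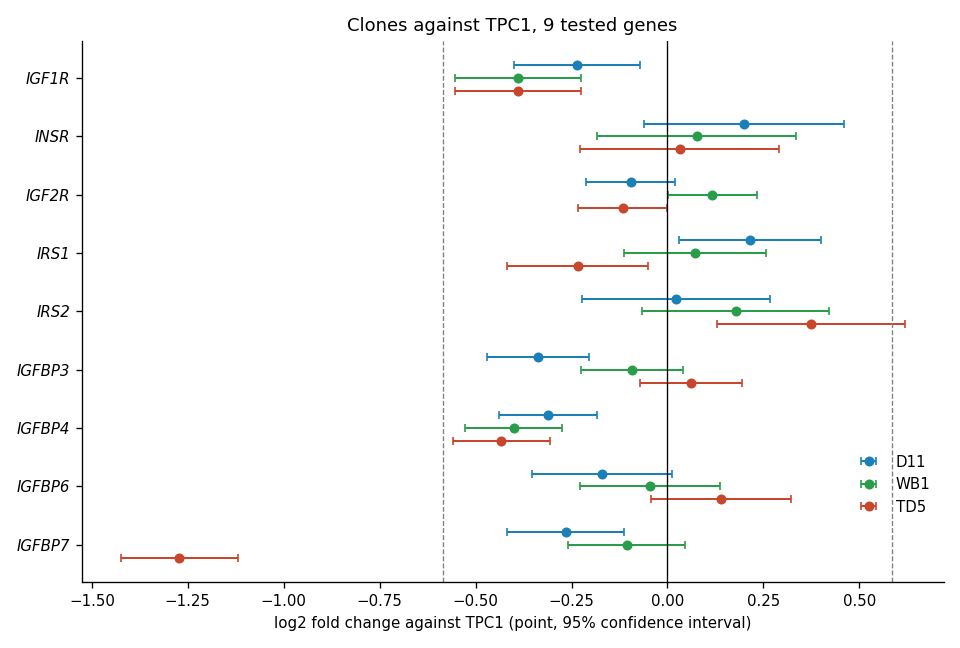
Log2 fold change against TPC1 with its 95% confidence interval for the 9 tested genes in D11, WB1 and TD5. Dashed lines mark 1.5-fold, and the solid line marks no change. The interval of IGFBP7 in TD5 (−1.42 to −1.12) lies wholly beyond 1.5-fold, those of IGFBP4 and IGF1R lie below 0 in all 3 clones, and those of INSR include 0.

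Of the receptor substrates, IRS1 was lower in TD5 than in D11, and IRS2 passed the test narrowly in TD5. IRS1 (ENSG00000169047, chromosome 2, 226731312 to 226799820, minus strand) had 1732, 1736 and 1581 scaled reads in TPC1, 1876, 1917 and 2077 in D11, 1611, 1996 and 1720 for WB1, and 1265, 1437 and 1597 for TD5. D11 lay above TPC1, and WB1 and TD5 overlapped with it. None of the differences against TPC1 passed the test (0.21 in D11, adjusted p = 0.067; 0.07 in WB1, adjusted p = 0.553; −0.23 in TD5, adjusted p = 0.0922). That of D11 passed with only the lines compared in the fit (adjusted p = 0.0121) and without WB1 replicate 2, TD5 replicate 1 or TD5 replicate 3, and was 0.08 after a length correction. That of TD5 passed without TD5 replicate 3 (−0.31, adjusted p = 0.0316) and with the length correction (adjusted p = 0.0481). Between the clones, TD5 was below D11 without overlap, by −0.45 (standard error 0.087, adjusted p = 0.00182), and this passed with any 1 library left out. TD5 was also below WB1 (−0.31, adjusted p = 0.0285), which was lost without WB1 replicate 2, TD5 replicate 1 or TD5 replicate 2 (adjusted p = 0.00593 to 0.15) and under 6 other alternatives.

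IRS2 (ENSG00000185950, chromosome 13, 109752695 to 109786583, minus strand) had 413, 463 and 402 scaled reads in TPC1, 427, 407 and 465 in D11, 461, 482 and 509 for WB1, and 528, 464 and 704 for TD5. TD5 lay above TPC1, by 1 scaled read at its lowest library, and its replicate 3 was far above the others. For TD5 the log2 fold change was 0.37 (standard error 0.12, adjusted p = 0.0444), and 0.21 without TD5 replicate 3. It no longer passed in 9 of the 12 fits with a library left out, namely TPC1 replicate 1 or 3, any D11 library, WB1 replicate 1 or 2, or TD5 replicate 1 or 3 (adjusted p = 0.00632 to 0.198), nor with no filter or only the lines compared. Those of D11 (0.02) and WB1 (0.18) did not pass. TD5 was above D11 by 0.35 (adjusted p = 0.0368), which was lost without any of the D11 libraries or TD5 replicate 1 or 3 (adjusted p = 0.0091 to 0.152), with no filter, with only the lines compared, and with a GC correction, alone or with the replicate block. The ratio of IRS1 to IRS2 scaled reads was 3.96 ± 0.22 (SD, n = 3) in TPC1, 4.52 ± 0.17 in D11, 3.67 ± 0.41 in WB1 and 2.59 ± 0.45 in TD5. This ratio is a description with no test.

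Counting all differences between clones, 2 of the 9 tested genes passed for WB1 against D11, both higher, and 8.07% of all tested genes passed. For TD5 against D11, 5 passed, 3 higher and 2 lower, and 23.2% of all tested genes passed. For TD5 against WB1, 3 passed, all lower, and 13.6% of all tested genes passed. Called were 0, 1 and 1 of the 9, each time IGFBP7, and 2.85%, 3.99% and 2.33% of all tested genes. The 3 comparisons share libraries with each other.

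Because Dicer1 makes mature miRNAs, the 3′ UTRs of the 10 genes were searched for sites complementary to the seed, bases 2 to 8, of 8 miRNAs known from thyroid cells or from IGF1R regulation. The let-7 seed, which 11 mature miRNAs share, is shown because its sites lie in all 3 receptors, and that of miR-100, which 3 share, because it is the rarest of the 8 and has its site in IGF1R. Mature sequences are from RefSeq and the UTRs from the canonical transcripts of GRCh38, and capitals mark the seed or the site.
let-7a-5p: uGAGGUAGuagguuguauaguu
IGF1R, chr15:98960047-98960068, plus strand: ccccaaacatttatCTACCTCa
IGF1R, chr15:98964089-98964110, plus strand: ttgccagagtttgtCTACCTCt
INSR, chr19:7114656-7114677, minus strand: tttttcagcacagtCTACCTCa
IGF2R, chr6:160111270-160111291, plus strand: gtcagccccttcttCTACCTCt
IRS2, chr13:109755844-109755865, minus strand: aaacgaccacagtcCTACCTCa
miR-100-5p: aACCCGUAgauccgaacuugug
IGF1R, chr15:98963030-98963051, plus strand: taagtccagtagatTACGGGTa

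Only the transcribed strand was searched, for the letters CTACCTC and TACGGGT among others. The let-7 letters occur in 11.6% of the 12035 3′ UTRs of tested genes with at least 100 bases, and in 28.4% of those between 0.5 and 2 times as long as that of IGF1R, which has 7088 bases. The miR-100 letters occur in 1.33% of all and 3.91% of those of like length. For lengths like those of IGF2R, INSR and IRS2 the let-7 shares are 26.5%, 21.2% and 18.2%. Sites of the other seeds occur in 25.5% to 44.5% of UTRs of a length like that of IGF1R. For a length like that of IGFBP4 they occur in 6.25% to 14.6%. Over the 8 seeds, IGF1R had 7 matches, IRS1 6, IRS2 6, and INSR, IGF2R and IGFBP5 2 each. IGFBP3 had 1. IGFBP4, IGFBP6 and IGFBP7, whose 3′ UTRs have 1142, 173 and 544 bases, had 0. IGF1R, with 7 matches in 7088 bases, and IGFBP4, with 0 in 1142, were both lower in every clone. A part of miRNAs in these differences was not tested. A match is a description of the letters, and the mature miRNAs were not measured in these libraries.

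The ligands were next to absent. IGF1 had 1 scaled read in TPC1 replicate 1 and 0 in the other libraries, and insulin had 0 in all. IGF2 had 17, 11 and 9 scaled reads in TPC1, 2, 5 and 7 in D11, 6, 13 and 9 for WB1, and 4, 10 and 8 for TD5, under the level needed for a test. IGFBP1, IGFBP2, IGFBPL1, IGFALS, INSRR, IRS4, IGF2BP1, INPP5D and FOXO6 also stayed under that level. Of 61 other genes of the pathway 49 could be tested.

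The proteases that free IGFs from their binding proteins, and the stanniocalcins that inhibit those proteases, held the largest called differences of WB1 and TD5 among these 49 genes. PAPPA had 314, 298 and 342 scaled reads in TPC1, 298, 272 and 313 in D11, 414, 420 and 483 for WB1, and 156, 109 and 192 for TD5. TD5 lay below all other lines and WB1 above them. The log2 fold change of PAPPA was −0.999 in TD5 (standard error 0.14, adjusted p = 0.000156, called), 0.44 in WB1 (adjusted p = 0.0227, not called) and −0.10 in D11 (adjusted p = 0.574). PAPPA was lower in TD5 than in D11 by −0.89 (adjusted p = 0.000265) and than in WB1 by −1.44 (adjusted p = 3.27e-06). PAPPA2, which prefers IGFBP3 and IGFBP5, had 801, 752 and 687 scaled reads in TPC1, 895, 826 and 958 in D11, 684, 770 and 775 for WB1, and 560, 488 and 517 for TD5. The TD5 difference of −0.50 passed the test and was not called (adjusted p = 0.000975), whereas that against D11 was called (−0.75, adjusted p = 1.07e-05).

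STC1 had 511, 819 and 486 scaled reads in TPC1, 686, 526 and 731 in D11, 1396, 1399 and 1685 for WB1, and 1325, 921 and 1575 for TD5. D11 overlapped with TPC1, and WB1 and TD5 lay above both. Its log2 fold change was 1.31 for WB1 (standard error 0.19, adjusted p = 0.000115) and 1.05 for TD5 (standard error 0.19, adjusted p = 0.00134), both called, and 0.12 in D11 (adjusted p = 0.639). STC1 was higher than in D11 in both WB1 (1.19, adjusted p = 0.000406) and TD5 (0.93, adjusted p = 0.00205). The related STC2 (−0.10, −0.01 and −0.22) and the protease HTRA1 (0.07, 0.30 and 0.14) were not called in any clone. In TD5 IGFBP4 and PAPPA, the protease that cuts it, were both lower and the inhibitor STC1 was higher than in TPC1. IGFBP4 was lower in every clone, and STC1 was called higher in WB1 too. Of these, PAPPA was the one called against TPC1 in TD5 alone.

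Over all 49 genes, the proteases and stanniocalcins included, 1 was called higher and 0 lower in D11, 3 higher and 0 lower in WB1, and 2 higher and 1 lower in TD5, beside 4.84%, 4.99% and 2.6% of all tested genes called. By the test alone, without regard to fold, 12 were higher and 12 lower in D11, 14 higher and 10 lower in WB1, and 2 higher and 5 lower in TD5, beside 33.3%, 30.9% and 11.9% of all tested genes. Of 24 genes of the PI3K, AKT and mTOR list RICTOR, the scaffold of mTOR complex 2, was called in D11 (0.59, adjusted p = 0.0019). It passed the test in all alternatives but fell under 1.5-fold in 6 of them and in 4 fits without a library, and was 0.31 after a GC correction. In the same list 6 genes were higher and 9 lower in D11, 5 higher and 9 lower in WB1, and 0 higher and 2 lower in TD5, by the test alone, to be read against the same 33.3%, 30.9% and 11.9%. AKT1 was lower in WB1 (−0.31, adjusted p = 0.00104). SHC1, an adaptor that links the receptors to RAS, was lower in D11 (−0.24, adjusted p = 0.00399), WB1 (−0.27, adjusted p = 0.00161) and TD5 (−0.31, adjusted p = 0.00115).

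SOCS1, a feedback inhibitor of cytokine and insulin signalling, had 17, 17 and 27 scaled reads in TPC1 and 37, 44 and 62 in WB1 (log2 fold change 0.74, adjusted p = 0.00214, called). With a pseudocount of 4 this was 0.34. FOXO4, a transcription factor that AKT holds in the cytoplasm, had 79, 59 and 40 scaled reads in TPC1, 49, 56 and 50 in D11, 81, 95 and 119 for WB1, and 117, 97 and 85 for TD5. It was called in WB1 (0.59, adjusted p = 0.0133) and TD5 (0.61, adjusted p = 0.0227). Both fell under 1.5-fold with a pseudocount of 4 (0.36 and 0.37), that of WB1 also with median-of-ratios scaling (0.55) and a length correction (0.54), and that of TD5 did not pass with no filter (adjusted p = 0.0823) or only the lines compared (adjusted p = 0.0513). Without TPC1 replicate 3 neither passed (0.41 and 0.43), nor did WB1 without its replicate 3 (0.47) or TD5 without its replicate 1 (0.51), with adjusted p = 0.00441 to 0.0865 in WB1 and 0.01 to 0.126 in TD5 over the left-out libraries. IGF2BP3, which binds IGF2 mRNA, was higher in D11 (0.52, adjusted p = 0.00186) and WB1 (0.39, adjusted p = 0.0107) and passed without being called, with 0.07 in TD5 (adjusted p = 0.729).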

How the data were processed

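Stranded mRNA libraries of TPC1, D11, WB1 and TD5 were sequenced, mapped with STAR 2.5.3a to GRCh38 and counted per gene with HTSeq 0.9.1 by the authors, as the submitters' processing notes list, and analysed by them with edgeR. The deposited values are a score: reads scaled by the authors to 20000000 aligned reads and rounded up (sums 20009833 to 20014191), not raw counts. A count test was therefore not used, although it was planned. Values were divided by library sums and taken to log2 after adding 1 per 1000000. A limma 3.58.1 model (R 4.3.3, variance trend, 1 mean per line, 12 libraries) was checked on simulated data. Python 3.11.15 was used for the rest. Named genes were the 10 genes, DICER1, the ligands, pathway genes called in at least 1 clone, and the 3 genes nearest in pattern to a called member. Other names (SHC1, AKT1, IGF2BP3, STC2, HTRA1, PAPPA2, SOCS2, IGFBP7-AS1 and other neighbours) were chosen after their values were seen. The members and gene lists were chosen with earlier results of these data known. Same-numbered libraries of D11 and TD5 deviated together (r = 0.107, 0.172 and 0.348). Every other pair of lines had a negative r among its 3, such as TPC1 and D11 (−0.193, −0.127 and −0.127). No source states a pairing by number, and these r values cannot establish one. The differences given come from the fit without pairing, and a replicate block was run as an alternative. Per-length levels used canonical transcripts of the GRCh38 annotation.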

Additional observations from a re-analysis of the deposited data

Results flagged for a closer look

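Some differences of the clones against TPC1 differed between clones by a direct test of the clones (limma, adjusted over all tested genes). IGFBP7 was lower in TD5 than in D11 (log2 difference −1.01) and than in WB1 (−1.17). PAPPA was lower in TD5 than in D11 (−0.89) and than in WB1 (−1.44), and PAPPA2 was lower in TD5 than in D11 (−0.75). STC1 was higher than in D11 in WB1 (1.19) and in TD5 (0.93). FOXO4 was likewise higher than in D11 in WB1 (0.71) and in TD5 (0.73). With a pseudocount of 4 both were under 1.5-fold (0.43 and 0.44), and the former was lost without WB1 replicate 3 (0.59) and with no filter (adjusted p = 0.0513). SOCS1 was higher in WB1 than in D11 (0.84, or 0.39 with a pseudocount of 4). SOCS2, an inhibitor of growth hormone signalling, was lower in TD5 than in D11 (−0.67, adjusted p = 0.00271), with 66, 70 and 82 scaled reads in D11 and 35, 34 and 46 in TD5.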

How the results depend on the processing

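Every line is 1 clone or the parental line, with 3 libraries, so a difference between lines is one between these cell populations. Raw counts were not used, the depth is an estimate, and genes under 1 per 1000000, such as IGFBP5 and the ligands, could not be compared. The number of members called stayed at 0, 0, 1, 0, 1 and 1 (D11, WB1 and TD5 against TPC1, WB1 against D11, TD5 against D11, TD5 against WB1) under the alternatives run, the replicate block included, except that with no minimum fold change it was 4, 2, 4, 2, 5 and 3. With the replicate block the counts were 0, 0, 1, 0, 1 and 1, and IGFBP6 no longer passed the F test among the lines (adjusted p = 0.0539), which left 7 members; the block alone changed no other member's result. Corrections for GC content and transcript length, voom on estimated reads and the block with corrections were chosen after seeing the data.

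Of 1450 alternative values for single genes, 18 changed sign, none of them of a called difference. With a length correction, with or without the block, INSR, IGF2R and IRS1 in WB1 were −0.0705, −0.0668 and −0.0777 and IRS2 in D11 was −0.0984. IGFBP6 in WB1 was 0.0718 with a GC correction, with or without the block, and IRS2 in D11 was −0.0339 with median-of-ratios scaling. With a library left out, INSR in TD5 ranged from −0.0734 to 0.186, IRS1 in WB1 from −0.0145 to 0.138, IRS2 in D11 from −0.0274 to 0.0815 and IGFBP6 in WB1 from −0.121 to 0.0477. The cause was not tested.

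Over all tested genes, 775, 799, 417, 456, 640 and 373 were called in the same order of comparisons. With a pseudocount of 4 these were 295, 339, 180, 213, 283 and 140, and with no minimum fold change 5329, 4956, 1906, 1293, 3721 and 2186. A filter at 5 per 1000000 gave 514, 523, 272 and 280 in the first 4 and 231 in the last. Voom on scaled values gave 1185 in D11, 1263 in WB1, 1003 in TD5 against D11 and 577 in TD5 against WB1, and voom on estimated reads gave 1176, 1273 and 980 in the first 3 of these.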
